A study of Rattus norvegicus with 6 samples.

Results

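Microglia and macrophages of the embryonic rat cortex were followed through 8 marker genes, Aif1, Cx3cr1, C1qa, C1qb, Tyrobp, Cd68, Itgam and Ptprc. The genes were chosen by their known expression in these cells, with earlier results of these data known, and were found by Ensembl identifier. All 8 were present among the 32754 identifiers of the deposited table, and all 8 passed the filter on low counts. The symbols are those given with the list of identifiers. The deposited table holds identifiers alone, and the gene table used here gave an Ensembl identifier for 0 of its 47357 genes, so the pairing of symbols with identifiers was not checked.

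The 6 libraries came from cortex collected on embryonic day 18, with 3 Sprague-Dawley rats (SD) as controls and 3 rats of tish, a rat line with a bilateral band of misplaced neurons under the cortex. The series title ties the tish phenotype to a deletion in Eml1, the gene of a protein that binds microtubules. Each group held 2 males and 1 female, the females being SD 2 and tish 2. The dissection was described as neocortex for SD and as normally placed plus heterotopic cortex for tish, so tissue and genotype cannot be told apart, and litters were not named. Library totals ran from 15625915 to 20844504 counts. SD 1 exceeded each of the other libraries by 4-fold or more in 20 tested genes. Tish 3 fell short of each of the others by 4-fold or more in 65, and 0 of the 8 markers were among either set. Such genes were counted for these libraries and directions only, so the counts do not show that SD 1 and tish 3 were unusual. Markers of other cell types were not analysed here for want of symbols, so the labelled tissue was not checked against them.

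Microglia are the resident macrophages of the brain. They descend from yolk sac progenitors and enter the cortex before birth, where they clear dying cells and debris. Other macrophages line the meninges and vessels and share most of these markers, so the genes used here do not tell the populations apart. In whole tissue, fewer cells of a type and less RNA per cell cannot be told apart either.

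C1qa and C1qb encode chains of C1q, the recognition molecule of the classical complement pathway. The stretches of 250 bases upstream of their annotated start sites are shown because the ratio of these genes is described below. That ratio was singled out after its values were seen. They come from RefSeq on the rat build GRCr8 and were matched by symbol, as was possible for 6 of the 8 genes. Both genes lie on chromosome 5, minus strand, with the windows at chr5:154419934-154420183 for C1qa and chr5:154407828-154408077 for C1qb, and the sequences read 5′ to 3′ toward the gene. Capitals mark GAGGAA or its reverse complement TTCCTC, a string found in some binding sites of PU.1, the myeloid transcription factor. Other forms of these sites were not searched, so a window without a match may still hold such a site. The C1qa window, for example, holds the similar string ggggaagtg, which was not counted.
C1qa: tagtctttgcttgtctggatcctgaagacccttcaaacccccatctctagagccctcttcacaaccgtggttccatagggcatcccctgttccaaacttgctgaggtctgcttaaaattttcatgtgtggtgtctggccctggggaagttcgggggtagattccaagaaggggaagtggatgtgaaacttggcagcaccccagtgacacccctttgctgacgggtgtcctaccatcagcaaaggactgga
C1qb: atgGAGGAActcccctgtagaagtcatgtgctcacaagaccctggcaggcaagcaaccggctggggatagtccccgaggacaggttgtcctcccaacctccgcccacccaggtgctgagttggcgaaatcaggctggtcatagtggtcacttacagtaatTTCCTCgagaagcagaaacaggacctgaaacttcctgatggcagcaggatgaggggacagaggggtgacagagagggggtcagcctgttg
The C1qb window held 2 matches, starting at positions -247 and -90 relative to the start site, and the C1qa window held 0. Of the 6 markers with a sequence, 4 had a match, as did 23.3% of 33469 windows of this length. A match is a string of letters and does not show binding, and the absence of one says only that these letters are not in this window.

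None of the 8 markers was called different between tish and SD. The edgeR quasi-likelihood test, with p adjusted over 14818 genes, called 0 of 8 at an adjusted p under 0.05, where calls made up 26.3% of all tested genes, with 13.4% higher and 12.9% lower in tish. At an unadjusted p under 0.05 there was 1 of 8, C1qa, against 38.9% of all tested genes. DESeq2 called 1 of 8, also C1qa, against 27.4% of all tested genes. The 8 estimates had a median log2 fold change of 0.11, against -0.02 over all tested genes. All 8 estimates lay above 0 in tish, as did 48.0% of all tested genes, but the 8 come from the same libraries and are not independent. Those of C1qb and Cd68 fell below 0 without scaling factors, and those of C1qb, Tyrobp and Cd68 without tish 2. Every interval except that of C1qa included 0. The median standard error of the markers on the log2 scale was 0.22, against 0.14 over all tested genes. It was also 0.22 in the 5511 tested genes with a mean level in the markers' range. Small differences were thus harder to resolve for the markers than for a typical gene, but not than for genes of like level.

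**Figure D1:**
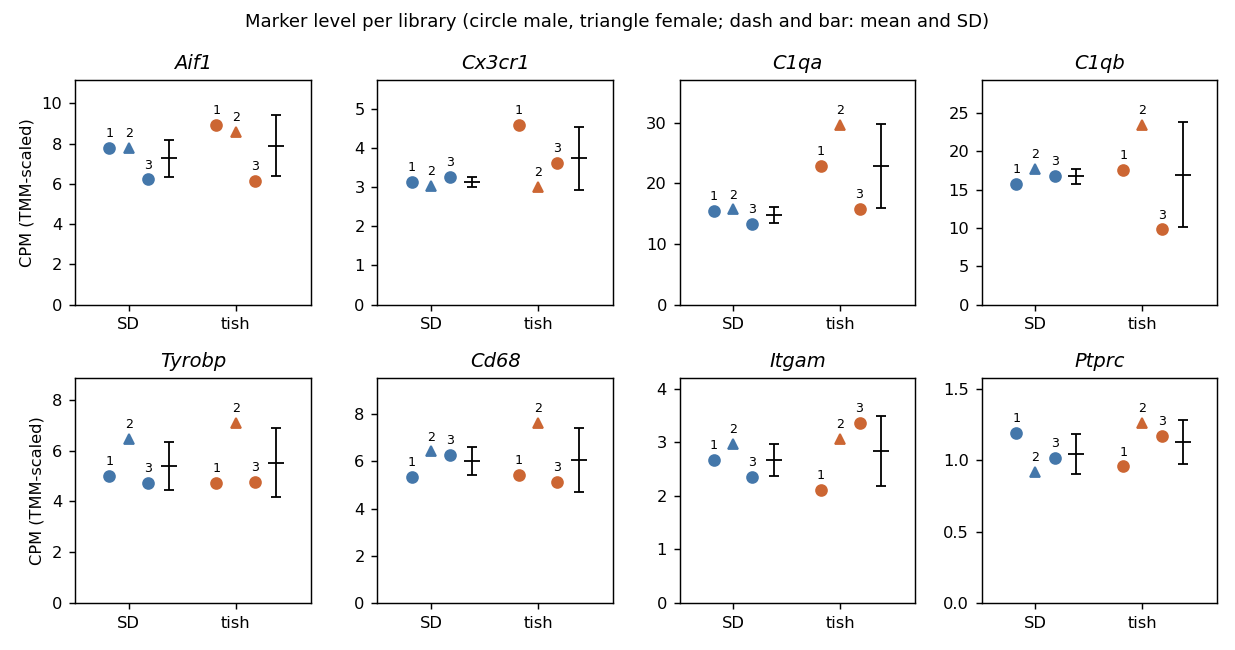
Level of each marker in each library in CPM (read counts put on a common scale by library total and TMM factor), with circles for males, triangles for females, the replicate number above each point, and a dash with bar for the mean and SD of 3 libraries. The groups overlapped for 7 of the 8 genes, and for C1qa tish 3 lay at 15.8 CPM beside 15.7 CPM in SD 2.

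Levels in CPM, as used here, are read counts divided by the library total after adjustment by TMM. They were not compared between genes, since gene lengths were not used. Values for 3 libraries are listed in the order of their replicate numbers. C1qa (ENSRNOG00000012807) was counted 271, 291 and 248 times in the SD libraries, against 358, 611 and 311 times in those of tish. As levels these were 15.4, 15.7 and 13.3 CPM in SD and 22.9, 29.7 and 15.8 CPM in tish. The SD libraries were close together, tish 1 and tish 2 stood above them, and tish 3 exceeded the highest SD library by only 0.119 CPM. Without scaling factors the groups overlapped, with tish 3 at 15.3 CPM and SD 1 at 16.0 CPM. Over all tested genes, scaled groups did not overlap in 44.3%, so the separation of C1qa is not unusual in this comparison.

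C1qa averaged 14.8 ± 1.32 CPM in SD against 22.8 ± 6.92 CPM for tish (SD, n = 3 each). The fitted fold was 1.54, with a 95% interval of 1.10 to 2.15, a log2 fold change of 0.62 (SE 0.21), and it missed the threshold after adjustment over all genes (edgeR adjusted p = 0.0601). The call depended on tish 3 and on the method. Without tish 3 the log2 fold change was 0.83 (edgeR adjusted p = 0.0125), and without tish 2 it was 0.38 (adjusted p = 0.180). Over all alternatives the adjusted p ran from 0.00970, with SD 1 and tish 3 both left out, to 0.218 with males alone. DESeq2 gave an adjusted p of 0.0202 and limma voom 0.0923. With sex as a covariate edgeR gave a log2 fold change of 0.59 and an adjusted p of 0.0354.

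C1qb (ENSRNOG00000012804) was counted 276, 328 and 314 times in the SD libraries, against 275, 484 and 193 times in those of tish. Its levels were 15.7, 17.7 and 16.8 CPM in SD and 17.6, 23.5 and 9.82 CPM in tish. The tish libraries lay on both sides of SD: tish 2 was the highest of the 6 and tish 3 the lowest. C1qb averaged 16.7 ± 0.993 CPM in SD against 17.0 ± 6.86 CPM for tish (SD, n = 3 each). The fitted fold was 1.01 with a 95% interval of 0.650 to 1.58, which leaves room for a difference in either direction (edgeR adjusted p = 0.971).

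The ratio of C1qa to C1qb counts was lower in every SD library than in any tish library. C1qa counts divided by C1qb counts gave 0.982, 0.887 and 0.790 for the SD libraries, against 1.30, 1.26 and 1.61 for the tish libraries. C1qa was thus counted less often than C1qb in all 3 SD libraries and more often in all 3 tish libraries, and the groups did not overlap. Equal counts have no meaning of their own here, since gene lengths were not used. The exact 95% intervals of the ratio also included equal counts in 2 SD libraries, at 0.827 to 1.17 in SD 1 and 0.755 to 1.04 in SD 2. The mean ratio was 0.886 ± 0.0960 in SD and 1.39 ± 0.191 in tish (SD, n = 3 each). On the log2 scale the difference was 0.65, a fold of 1.57, and it stayed between 0.54 and 0.72 when any 1 library was left out. Because the groups did not overlap, leaving out 1 library could not have reversed its sign, so this range is no test of the difference. A ratio within a library does not depend on how libraries are scaled.

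**Figure D2:**
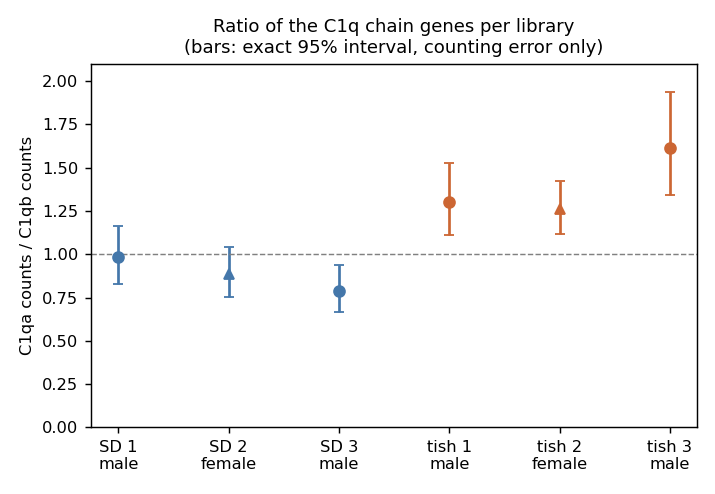
C1qa counts divided by C1qb counts in each library, with the exact (Clopper-Pearson) 95% interval, which covers counting error only; the dashed line marks equal counts. The 3 SD libraries lie from 0.790 to 0.982 and the 3 tish libraries from 1.26 to 1.61.

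The exact 95% intervals of SD 2 and SD 3 met that of no tish library, and that of SD 1 did not meet that of tish 3. Intervals that meet do not show that counting error spans the gap, and single libraries were not tested against each other. C1qa took 49.5% of the summed C1qa and C1qb counts in SD 1, with an exact 95% binomial interval (Clopper-Pearson) of 45.3% to 53.8%. The lowest share in tish was 55.8% in tish 2, with an interval of 52.8% to 58.8%, and the intervals of tish 1 and tish 2 met that of SD 1. The highest was 61.7% in tish 3, with an interval of 57.3% to 66.0%, and the lowest of SD was 44.1% in SD 3, with an interval of 40.0% to 48.3%. These intervals cover counting error only.

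This ratio was singled out after its values were seen, as the largest difference among all 28 pairs of markers. In an exact 2-sided permutation test over the 6 libraries its p was 0.1, the smallest that 3 against 3 allows, and 0.7 after Benjamini-Hochberg adjustment over the 28 pairs. The ratio did not overlap between groups in 4 pairs, and all 4 held C1qa, set against C1qb, Cd68, Tyrobp or Aif1. Paired with every other tested gene, C1qa gave ratios that did not overlap in 41.2% and C1qb in 12.5%. The count of 4 in the 7 pairs with C1qa therefore stands on a high background.

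The remaining markers showed smaller estimates with intervals around 0. Aif1 encodes IBA1, an actin-binding protein of the cytoplasm widely used to stain microglia. The identifier ENSRNOG00000000853 was counted 137, 144 and 116 times in SD, against 140, 177 and 121 times for tish, which is 7.80, 7.77 and 6.22 CPM in SD and 8.94, 8.59 and 6.15 CPM in tish. In each group 1 library, SD 3 and tish 3, lay below the other 2, and the groups overlapped. The fold was 1.09 with a 95% interval of 0.803 to 1.47 (edgeR adjusted p = 0.695).

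Cx3cr1 encodes the receptor for fractalkine, a chemokine made by neurons. The counts of ENSRNOG00000018509 were 55, 56 and 61 for SD, against 72, 62 and 71 for tish, or 3.13, 3.02 and 3.27 CPM in SD and 4.60, 3.01 and 3.61 CPM in tish. Tish 2, the highest library for most other markers, was the lowest for Cx3cr1, while tish 1 and tish 3 lay above all SD libraries. The fold was 1.18 with a 95% interval of 0.844 to 1.66 (edgeR adjusted p = 0.447). Without tish 1 the log2 fold change was 0.08, and with all libraries it was 0.24.

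Itgam encodes CD11b, an integrin chain that forms complement receptor 3 and binds complement-tagged material. The counts of ENSRNOG00000019728 were 47, 55 and 44 for SD, against 33, 63 and 66 for tish, or 2.68, 2.97 and 2.36 CPM in SD and 2.11, 3.06 and 3.36 CPM in tish. Tish 1 was the lowest of all libraries and tish 3 the highest, an order unlike that of C1qa and C1qb. The fold was 1.07 with a 95% interval of 0.736 to 1.56 (edgeR adjusted p = 0.799).

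Ptprc encodes CD45, the tyrosine phosphatase carried by nearly all white blood cells. This gene (ENSRNOG00000000655) was the marker with the fewest counts, 21, 17 and 19 for SD against 15, 26 and 23 for tish, or 1.20, 0.917 and 1.02 CPM in SD and 0.958, 1.26 and 1.17 CPM in tish. The groups overlapped. The fold was 1.09 with a 95% interval of 0.710 to 1.67 (edgeR adjusted p = 0.777), the log2 standard error of 0.27 being close to that of C1qb.

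Tyrobp encodes DAP12, the signalling adaptor of TREM2 and related receptors. The counts of ENSRNOG00000020845 were 88, 120 and 88 for SD, against 74, 146 and 94 for tish, or 5.01, 6.47 and 4.72 CPM in SD and 4.72, 7.09 and 4.78 CPM in tish. The 2 libraries from females were the highest of their groups, and the other 4 lay close together. The fold was 1.03 with a 95% interval of 0.723 to 1.46 (edgeR adjusted p = 0.922).

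Cd68 encodes a glycoprotein of lysosomes and endosomes, abundant in phagocytic cells. Cd68 (ENSRNOG00000037563) was counted 94, 119 and 117 times for SD, against 85, 157 and 101 times for tish, or 5.35, 6.42 and 6.27 CPM in SD and 5.43, 7.62 and 5.14 CPM in tish. Tish 2 stood above the other 5 libraries. Cd68 averaged 6.01 ± 0.578 CPM in SD against 6.06 ± 1.36 CPM for tish (SD, n = 3 each), a fold of 1.01 with a 95% interval of 0.737 to 1.38 (edgeR adjusted p = 0.971).

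**Figure D3:**
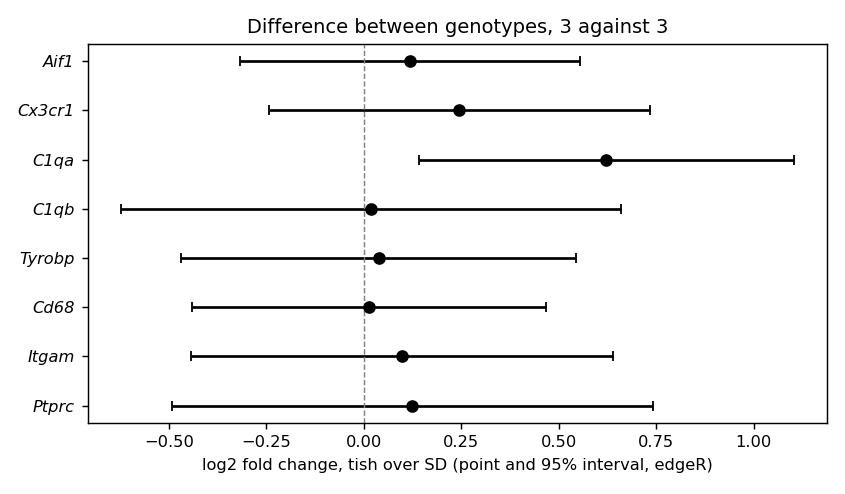
Log2 fold change of each marker in tish over SD, as the edgeR estimate (point) with its 95% interval (bar); the dashed line marks no difference. The interval of C1qa runs from 0.14 to 1.10, before adjustment over genes, and the other 7 intervals include 0.

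For these 8 markers the tish libraries were spread more widely than the SD libraries. The highest tish library divided by the lowest was larger than the same quotient in SD for 8 of the 8 markers, a pattern found in 36.7% of all tested genes and in 43.1% of the 5511 tested genes with a mean level in the markers' range of 1.09 to 18.8 CPM. The quotient was 2.39 in tish and 1.13 in SD for C1qb, and 1.88 and 1.18 for C1qa. It was nearly equal for Ptprc, at 1.32 and 1.30. The 8 markers come from the same libraries and are not independent. With 3 libraries in each group this spread was described and not tested.

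Tish 2 was the highest of the 6 libraries for 5 of the 8 markers, C1qa, C1qb, Tyrobp, Cd68 and Ptprc, while 13.6% of all tested genes were highest there. Here too the markers are not independent of each other. Relative to each gene's SD mean, the 8 markers had a median of 1.24 in tish 2, from 0.959 for Cx3cr1 to 2.0 for C1qa. In tish 1 the median was 0.983 and in tish 3 it was 0.977. Summed over the 8 markers the level was 56.3, 61.0 and 54.0 CPM for the SD libraries, against 67.2, 83.8 and 49.8 CPM for those of tish. The sums overlapped, since tish 3 was the lowest of the 6 and tish 2 the highest. Without C1qa and C1qb they ran from 23.8 to 27.6 CPM in SD and from 24.2 to 30.6 CPM in tish.

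**Figure D4:**
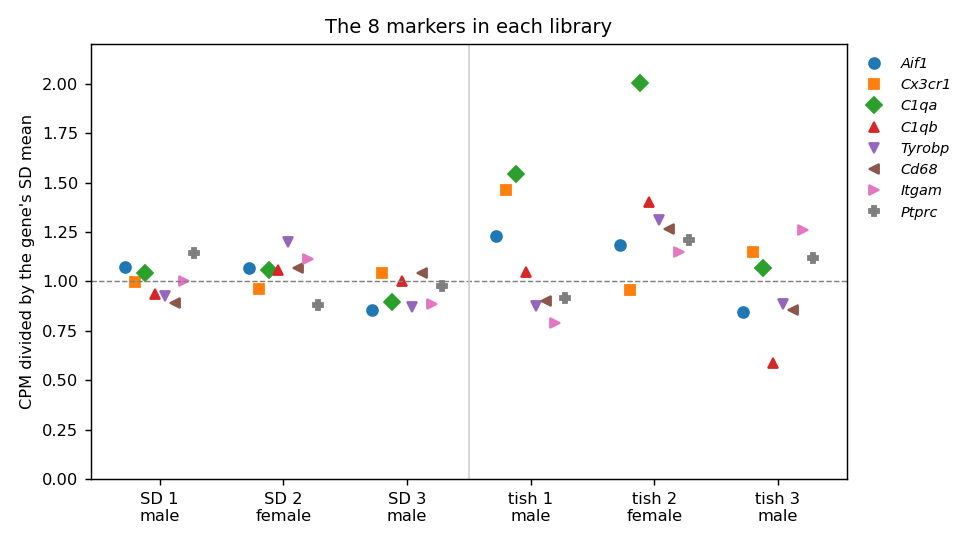
Level of each of the 8 markers in each library, divided by the mean of that gene in the 3 SD libraries; the dashed line marks that mean. In SD the points lie between 0.856 and 1.20, and in tish between 0.586 (C1qb in tish 3) and 2.0 (C1qa in tish 2).

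Tish 2 was also the only female of its group. The female exceeded the mean of the 2 males for 6 of 8 markers in SD, against 48.1% of all tested genes. In tish this held for 7 of 8 markers, against 48.8%, and in both groups for 6 of 8, against 29.9%. These counts again come from markers that are not independent. For Tyrobp the female level was 1.33 times the male mean in SD and 1.49 times in tish. For C1qb it was 1.09 and 1.72 times, and for Cx3cr1 it was 0.944 and 0.734 times. With 1 female in each group the sexes have no replicate within a genotype, so sex and single animal cannot be told apart. With males alone, 2 against 2, C1qa had a log2 fold change of 0.43 (edgeR adjusted p = 0.218). In that fit 0 of 8 markers were called, against 14.3% of all tested genes.

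The markers did not all follow 1 pattern over the libraries. The mean of their standardised log2 CPM was taken as a common profile, which each marker helps to make. Pearson's r with that profile over the 6 libraries was 0.908 for C1qa, 0.821 for Tyrobp, 0.736 for Cd68, 0.720 for C1qb and 0.712 for Aif1. It was 0.387 for Ptprc, 0.232 for Itgam and -0.236 for Cx3cr1. The genes outside the list most like the profile were ENSRNOG00000016827, with an r of 0.991 and 80.8 to 108 CPM, and ENSRNOG00000037087, with an r of 0.979 and 8.09 to 10.9 CPM. Both were highest in tish 2, and neither was called between genotypes (edgeR adjusted p = 0.297 and 0.505). With 6 libraries and 14818 genes many high values of r arise, so the 2 identifiers are given as a description. At least the r of C1qa was reached by 39 genes, C1qa itself included.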

How the data were processed

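The single deposited table holds whole-number read counts for each Ensembl identifier in 6 libraries. STAR, featureCounts 1.5.0 and the build Rnor_6.0 are named in the submitters' processing notes. For the annotation release, strand setting and multi-mapping reads, the sources used here give nothing, so counts of overlapping genes are uncertain. The deposited table holds its genes 2 times with 0 differing values, and each identifier was used once. Genes were kept by filterByExpr (minimum count 10), scaled by TMM and tested with edgeR 4.0.16 in R 4.3.3 (robust glmQLFit, glmQLFTest, genotype as the only term, Benjamini-Hochberg over all genes tested, called at an adjusted p under 0.05). SE is the log2 fold change divided by the square root of F. Alternatives were DESeq2 1.42.0, limma 3.58.1 voom, other scalings, filters and samples. Replicate pairs differed by at least 8.56 times the sampling noise (chi-square over degrees of freedom). The procedure was tested on simulated data. The 8 markers were always named, as were the 2 identifiers most like their profile. Lists of other cell types by symbol were not analysed. Members and lists were chosen with earlier results of these data known. Each library came from 1 animal per the labels; replicate numbers follow sample order.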

Additional observations from a re-analysis of the deposited data

How the results depend on the processing

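The main fit called 0 of 8 markers, so none could lose a call. Of 136 values of the 8 markers under other settings, 111 kept direction and side of the threshold, 4 passed it and 21 changed sign. The cause was not tested. The number of markers called was 0, and 1 (C1qa, higher in tish) under DESeq2, with sex as a covariate, with SD 1 and tish 3 left out together and at an adjusted p under 0.1. In that order, these 4 settings called 27.4%, 29.5%, 25.1% and 35.1% of all tested genes. With 1 library left out, the number of markers called was 0 to 1, the 1 being without tish 3, where 16.6% of all tested genes were called. The same holds for markers called higher in tish. Log2 fold changes that changed sign were as follows. For C1qb they were -0.0709 with limma voom, -0.0136 without scaling factors, -0.0283 with sex as a covariate, -0.247 with males alone and -0.0447 after thinning to the smallest total. For Tyrobp they were -0.0265 with males alone and -0.00869 after thinning. For Cd68 they were -0.0208 without scaling factors, -0.00569 with sex as a covariate and -0.132 with males alone. Ptprc gave -0.0418 with males alone, and Itgam -0.0308 with SD 1 and tish 3 left out together. With 1 library left out, log2 fold changes ran from -0.296 to 0.297 for C1qb, -0.183 to 0.193 for Tyrobp, -0.187 to 0.123 for Cd68 and -0.0353 to 0.269 for Itgam, each lowest without tish 2 except Itgam, lowest without tish 3. The C1qa to C1qb ratio, whose alternatives were added after seeing the data, gave 0.72 with males alone, 0.61 without SD 1 and tish 3 and 0.76 after thinning. Over all tested genes the 3894 calls became 2130 with males alone, 2437 without tish 1, 2502 without tish 3 and 1930 at an adjusted p under 0.01. Alternatives on lists by symbol were not run. No paired analysis was possible because the numbers of the replicates only follow sample order. Ptprc had 15 to 26 counts per library and a log2 SE of 0.27, while C1qb, with 193 to 484 counts, had an SE of 0.28, so the precision of the markers did not follow depth alone.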
